A study of Mus musculus with 39 samples.

Results

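Mature B cells were compared with pro-B cells of adult mouse bone marrow, and each large change between them was traced through the pre-B and immature B stages. The comparison used 9 of the 39 arrays of the series, 3 of mature B and 6 of pro-B cells, which were chosen by their labels and not by any measured value. A further 8 pre-B and 6 immature B arrays served to place the changes, and 16 arrays of leukemic pre-B cells were not compared here. Per the labels, pro-B cells were sorted as B220+ CD43+ IgM- IgD- and pre-B cells as B220+ CD43- IgM- IgD-. Immature B cells were B220+ CD43- IgM+ IgD-, and mature B cells were B220+ CD43- IgM+ IgD+. No treatment or altered allele is named for these 4 groups, and strain, sex and the number of animals behind an array are not given in the sources used here. The p-values therefore measure the spread between these arrays, which may be technical.

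B cells are made in the bone marrow in steps that follow the assembly of the antibody genes. Pro-B cells rearrange the heavy chain gene with the RAG recombinase, and large pre-B cells test the new heavy chain with a surrogate light chain, divide, and then rearrange a light chain gene. A cell that shows a complete IgM receptor is an immature B cell, and one that also carries IgD, CD21 and CD23 and can enter the follicles of spleen and lymph node is a mature B cell.

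Every level below is the log2 of the deposited intensity of 1 probe set per gene, and every difference is a difference of group means on that scale, so a difference of 1 is a 2-fold change. A gene was called when its limma p-value, adjusted over 12393 genes by the method of Benjamini and Hochberg, was under 0.05. Array medians of the 23 normal arrays lay between 6.37 and 6.76. The stage labels were set against 5 genes. Ptprc (B220) was at 10.96 in pro-B and 11.77 in mature B cells, and Spn (CD43) fell from 6.50 to 4.69, with the step to 5.31 in pre-B cells called. Cd79a, a signal chain of the B-cell receptor, rose from 10.68 to 12.65 and Pax5, the factor that holds cells in the B lineage, from 4.92 to 6.14. Ighm, the IgM heavy chain, was high in all stages at 12.62, 12.79, 13.43 and 12.83, and its 11 probe sets gave differences between -6.87 and 0.93. Ighd was not analysed here. The accessions form 2 runs, which may or may not be batches, and all 3 mature B arrays lie in the second of them beside 3 pro-B, 4 pre-B and 3 immature B arrays. The difference between the 3' and 5' probe sets of the beta-actin control was 1.25 on the pro-B arrays of run 1, 0.77 on those of run 2 and 0.86 on the mature B arrays. For Gapdh the same difference was 0.92, 1.15 and 1.59, so it was largest on the mature B arrays. Its part in the results was not tested. Array immature-B4 stood apart from the other 5 immature B arrays for several genes and lists given below. The other 5 were not all alike. For the V(D)J and surrogate light chain list immature-B1 and immature-B5 had means of 8.13 and 7.92. On immature-B2, immature-B3 and immature-B6 that mean was 9.25 to 9.42. The interferon list read 6.69 and 6.71 against 7.57 to 7.70 on the same arrays. The erythroid list read 5.73 and 5.80 against 6.95 to 7.03. The mitosis list, at 9.02 to 9.29, did not divide so. The part of this in the placements was not tested.

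Between pro-B and mature B cells 3485 of the 12393 genes were called (28.1%), 1680 higher (13.6%) and 1805 lower (14.6%) in mature B cells. Without mature-B1 1107 genes were called higher. The median difference over all genes was 0.13. Whether fewer cells of a type or less RNA per cell lay behind a lower level cannot be told apart in bulk samples. Among the called genes 607 were at least 2-fold higher and 968 at least 2-fold lower. A large change was taken as a called difference of at least 2, which is 4-fold, with no overlap between the 3 mature B and the 6 pro-B arrays. By that rule 473 genes changed (3.82%), 128 upward (1.03%) and 345 downward (2.78%). Over all genes the 3 mature B arrays lay above all 6 pro-B arrays in 15.9% and below them in 12.8%. A further 17 called genes differed at least 4-fold with overlapping arrays. Among the 3 pro-B and 3 mature B arrays of run 2 alone, 471 of the 473 were called. Those arrays are among the ones that chose the genes, and their lack of overlap fixes the sign there.

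Each of the 3 steps of the path was tested in the same fit. The step from pro-B to pre-B called 4162 genes (33.6%), 2214 higher (17.9%) and 1948 lower (15.7%). The step from pre-B to immature B called 2426 (19.6%), 1348 higher (10.9%) and 1078 lower (8.7%). The step from immature to mature B called 651 (5.25%), 243 higher (1.96%) and 408 lower (3.29%). The stages rest on 6, 8, 6 and 3 arrays, so these counts do not compare the sizes of the steps. Without mature-B1 the third step called 241 genes and without mature-B3 364. A large change was placed at a step when that step was itself called, went the same way and made up at least 50% of the whole difference.

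More large falls were placed at the first step than at either later one, and more large rises at the second step than at either other one. Of the 345 falls, 184 (53.3%) were placed from pro-B to pre-B, 92 (26.7%) from pre-B to immature B and 22 (6.38%) from immature to mature B. Of the 128 rises, 19 (14.8%) were placed at the first step, 50 (39.1%) at the second and 19 (14.8%) at the third. Of the others, 15 rises and 11 falls had 2 such steps, 16 and 26 were split over several called steps of less than 50%, and 9 and 10 were gradual, with at most 1 called step in their direction. Without array immature-B4, 56 rises and 72 falls were placed at the second step, and 19 rises and 25 falls at the third. Without mature-B2, 35 rises and 35 falls were placed at the third step, without mature-B1 13 and 14, and without mature-B3 30 rises were placed at the first step.

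**Figure D1:**
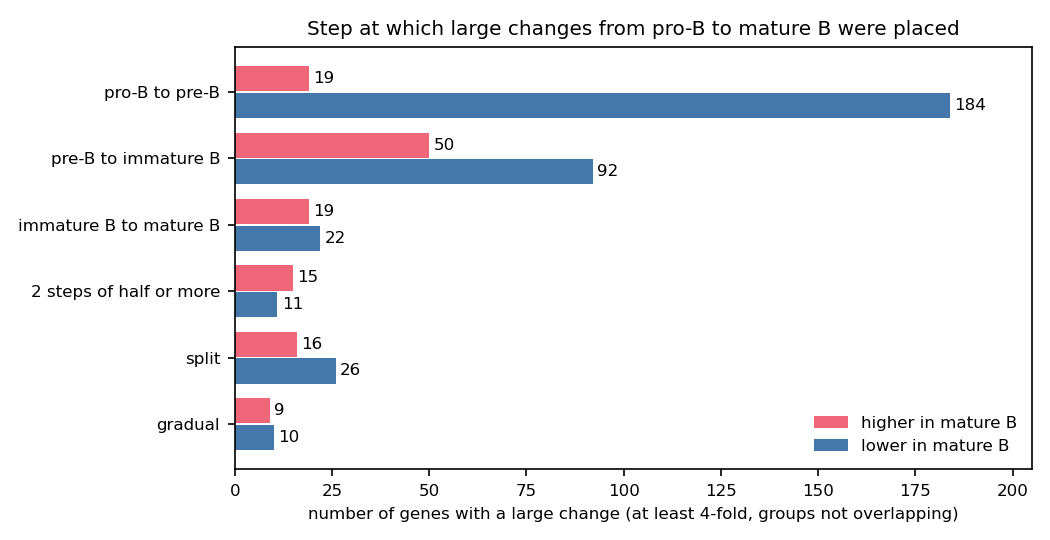
Number of genes (x axis) with a large change from pro-B to mature B cells, by the step at which the change was placed (y axis), with rises in red and falls in blue. The longest bar is the 184 falls from pro-B to pre-B, and the longest red bar is the 50 rises from pre-B to immature B.

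The largest rises were in Fcer2a, Tlr1, Fcrl1, Cxcr5, Cr2, Cd83, Cnr2, Crip3, Cd40, Cd55, H2-DMb2 and Ms4a1. Fcer2a, the low-affinity IgE receptor CD23, stood at 11.29, 10.14 and 10.86 on the 3 mature B arrays, while the 6 pro-B arrays ran from 3.39 through a median of 3.83 to 4.17. The groups lay far apart, with a difference of 6.94 (SE 0.42, adjusted p = 1.96e-11). The pro-B mean of 3.83 lay near 3.79, the level below which 95% of the values of bacterial control probe sets fell, so the size of the rise is not resolved. Its pre-B mean of 4.29 was close to pro-B, its immature B arrays ran from 6.13 to 8.70, and the second step was 3.30 and the third 3.17. The change was therefore split, and without immature-B4 it was placed at the second step. The other probe set of Fcer2a gave a difference of 4.72.

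Cr2, the complement receptor CD21, which lowers the threshold of the B-cell receptor, had a like course. It was at 10.70, 8.99 and 9.99 on the mature B arrays and between 4.32 and 5.11 on the pro-B arrays, a difference of 5.2 (SE 0.40, adjusted p = 9.92e-10). The second step was 2.54 and the third 2.18, and without immature-B4 or mature-B1 it was placed at the second. Mature-B2 was the lowest of the mature arrays. Across the 128 large rises mature-B2 was the lowest mature array in 87, mature-B3 in 27 and mature-B1 in 14. Mature-B2 also had the lowest array median of the mature B arrays, at 6.44, with 6.64 the highest, on mature-B3. Its 3' to 5' difference for beta-actin was 1.12, against 0.69 on mature-B1 and 0.78 on mature-B3. For Gapdh it did not stand apart, at 1.62 against 1.47 and 1.68. The part of these array differences in the results was not tested. Cd55, which protects cells from complement, rose at each of the 3 steps, by 1.98, 1.21 and 1.5, to 11.66, 10.75 and 11.28 from a pro-B range of 6.12 to 7.04. Cd40, the receptor for T-cell help, rose by 2.07 and 2.33 at the first 2 steps and stood at 11.42, 11.25 and 11.24 in mature B cells against 6.27 to 6.77 in pro-B cells. It too was placed at the second step without immature-B4 or mature-B1. Of the 473 large changes 8 were called at all 3 steps in the same direction.

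**Figure D2:**
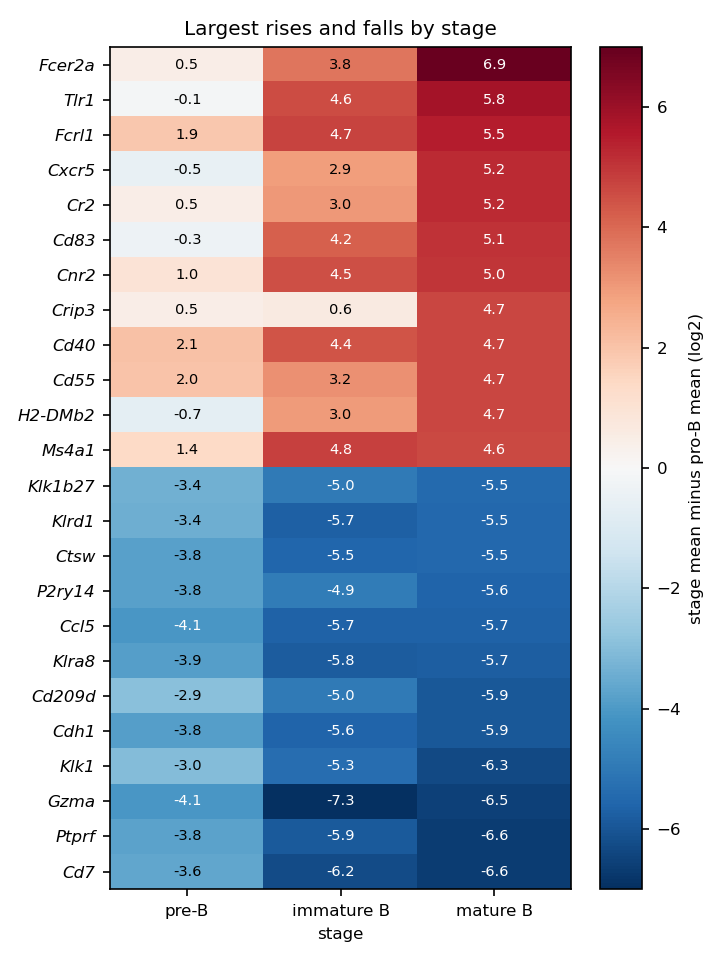
Difference of the pre-B, immature B and mature B means from the pro-B mean (log2, colour and printed value) for the 12 largest rises and the 12 largest falls. Tlr1, Cd83 and Cnr2 had most of their final difference by the immature B stage and Crip3 was not, while Gzma, Ccl5 and Klra8 had most of their fall by the pre-B stage.

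From pre-B to immature B the 5 largest rises placed were in Tlr1, Fcrl1, Cxcr5, Cd83 and Cnr2. Tlr1, a Toll-like receptor for bacterial lipoproteins, was at 4.68 in pro-B and 4.55 in pre-B cells and at 9.24 in immature B cells, a step of 4.69 (adjusted p = 8.7e-12). Its mature B arrays read 10.84, 10.09 and 10.62, above all pro-B arrays (3.95 to 5.45). Cd83, a surface protein of activated and antigen-presenting cells, went from 6.67 in pre-B to 11.18 in immature B cells and to 12.06, 12.04 and 12.12 on the mature B arrays. These 3 arrays lay close together, while the pro-B arrays spread from 5.92 to 7.85. Fcrl1, an Fc receptor-like protein of B cells, had risen by 1.86 in pre-B cells before its step of 2.86 in immature B cells.

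Cnr2, a cannabinoid receptor that B cells carry, rose by 0.95 and then by 3.55, to 10.09, 9.48 and 9.64 in mature B cells. On immature-B4 it read 8.36 and on the other immature B arrays 9.20 to 9.67, and without that array the second step was 3.73. Cxcr5, the chemokine receptor that guides B cells into follicles, was at 4.64, 4.13, 7.55 and 9.87 along the path. The second step was 3.43, and the third, 2.31, was called as well (adjusted p = 0.000544). Ms4a1, the surface protein CD20, rose by 1.41 and by 3.39 and then stood at 12.21, 12.54 and 12.14, with the third step at -0.18 not called.

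From pro-B to pre-B the 5 largest rises placed were in Dtx1, Gadd45g, Gh, Gramd3 and Traf5. Dtx1, the Deltex regulator of Notch signals, rose from 4.26 to 6.62 and on to means of 8.28 in immature and 8.64 in mature B cells, and without mature-B2 it was split instead. Gadd45g, a stress-response gene, reached 9.54 in pre-B cells from 6.36, fell by 0.89 in immature B cells and stood at 9.35, 9.39 and 9.12 in mature B cells. Its pro-B arrays ran from 6.13 to 6.59, so no pro-B array came near. Traf5, an adaptor of TNF receptors, rose by 1.56 at the first step and by 1.05 at the third, with 0.09 between. Gh, which encodes growth hormone, was read by 4 probe sets with differences between 1.75 and 3.6, and its mature B arrays spread over 7.12, 9.55 and 7.89.

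From immature to mature B the 5 largest rises placed were in Crip3, Crisp3, Ciita, Nid1 and Mapk12. Crip3, a small LIM-domain protein, was at 3.26, 3.71 and 3.88 in the first 3 stages and at 9.26, 6.0 and 8.61 on the mature B arrays. Its pro-B and pre-B means lay under 3.79, so the size of the rise is not resolved. Crisp3, a secreted cysteine-rich protein, read 7.68, 4.98 and 8.01 in mature B cells and 2.84 in pro-B cells, and Mapk12, a p38-type kinase, 9.08, 5.26 and 8.86 against 4.24. In Crip3, Crisp3 and Mapk12 mature-B2 lay between the immature B arrays and the other 2 mature B arrays. Nid1, a basement membrane protein, was at 9.74, 7.0 and 9.43 in mature B cells and 5.18 in pro-B cells. It read 4.53 on immature-B4 and 5.96 to 6.39 on the other immature B arrays. Without that array the second step was 2.02 and the third 2.48, so both passed 50% of the whole, and the same held without mature-B1 or mature-B3.

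The largest falls were in Cd7, Ptprf, Gzma, Klk1, Cdh1, Cd209d, Klra8, Ccl5, P2ry14, Ctsw, Klrd1 and Klk1b27. Cd7, a surface protein of T, NK and plasmacytoid dendritic cells and of early progenitors, was at 10.68 to 12.22 on the pro-B arrays (median 11.56) and at 4.27, 4.29 and 5.99 on the mature B arrays. The difference was -6.65 (SE 0.60, adjusted p = 1.04e-08), and 54.7% of it came at the first step. Gzma, a granzyme of cytotoxic cells, fell by 4.06 and then by 3.27, to 4.0, 2.68 and 5.32 from a pro-B range of 9.84 to 11.25. Klra8 and Klrd1, receptors of NK cells, fell by 5.74 and 5.52, Ccl5, a chemokine of T and NK cells, by 5.67, and Ctsw, a protease of cytotoxic cells, by 5.52. On Ccl5 the mature B arrays read 3.75, 4.32 and 5.66 and the pro-B arrays 9.13 to 11.14.

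Ptprf, a receptor phosphatase of adhesion sites, fell by 6.64 on the probe set used, from a pro-B median of 10.95 to 3.34, 4.54 and 4.91, while its 3 probe sets gave -6.64 to -1.30. Cdh1, E-cadherin, was at 8.35 to 10.25 in pro-B cells and at 3.02, 2.95 and 3.86 in mature B cells, and 64.8% of its fall of 5.94 came at the first step. P2ry14, a receptor for UDP-sugars, fell by 5.63. Klk1 and Klk1b27, 2 tissue kallikreins of a family of close copies that a probe set may not separate, fell by 6.32 and 5.47. Klk1, Klk1b27, Ptprf and Cdh1 spread widely among the pre-B arrays, for Klk1 from 3.28 to 9.06. In 42 of the 345 large falls the mature B mean lay under 3.79, and in 8 of the 128 large rises the pro-B mean did, so the size of those differences is not resolved.

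Markers of several other blood cells were higher in pro-B than in mature B cells. Of 13 NK-cell markers measured, 10 fell from pro-B to mature B cells and none rose (median -3.97), of 9 markers of plasmacytoid dendritic cells 8 fell (median -3.94), of 12 T-cell markers 10 fell (median -2.53) and of 7 basophil and mast cell markers 4 fell (median -0.76), or 2 without mature-B2. Together 41 different genes were measured, 25 of them were among the 345 large falls, and 23 were among the 184 falls placed at the first step. Ncr1, the NKp46 receptor that defines NK cells, was at 7.39 to 9.47 on the pro-B arrays, at 3.47 to 5.03 in pre-B cells and at 3.0, 3.21 and 3.37 in mature B cells. Cd3g, a chain of the T-cell receptor complex, was at 5.74 to 8.10 in pro-B cells and at 3.56, 3.53 and 3.61 in mature B cells, and Thy1 fell by 4.76. Bst2, which plasmacytoid dendritic cells carry, fell from 11.83 to 7.89, Klra17 from 11.71 to 6.94, with 9.79 on mature-B3, and Lair1 by 4.99.

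The marker lists also varied among the pro-B arrays. The mean of the NK list was 8.83, 8.64 and 8.67 on pro-B2, pro-B4 and pro-B6 and 7.81, 7.69 and 7.51 on pro-B1, pro-B3 and pro-B5, against 4.10 to 4.57 in immature B and 4.41 to 5.10 in mature B cells. The lists of plasmacytoid dendritic and T-cell markers were also higher on pro-B2, pro-B4 and pro-B6, at 10.99 to 11.30 and 7.32 to 7.45, than on the other 3, at 9.72 to 10.18 and 6.11 to 6.33. Of 16 neutrophil and monocyte markers none was called by limma (median 0.07, with 0 of 16 at an unadjusted p under 0.05). The mean of that list read 9.74, 8.60 and 10.75 on the mature B arrays, against 9.20 to 10.13 on the pro-B arrays. With that spread the missing calls do not show equal levels. S100a8 and S100a9, calcium-binding proteins of neutrophils, were at 12.80 and 13.24 in pro-B and 12.55 and 13.23 in mature B cells. That list was lowest in pre-B cells, with 12 of 16 lower than in pro-B cells. Of 8 erythroid markers none was called by limma between pro-B and mature B cells (2 at an unadjusted p under 0.05), while 3 were higher without mature-B2, and mature-B3 had the highest mean of that list at 7.85, against 5.85 and 5.39 on the other mature arrays. Of 7 plasma cell markers 1 fell (median -0.46), a share near the 14.6% called lower over all genes. It was Sdc1, by 0.98, a call lost without mature-B1, and Jchain was at 9.39, 5.27 and 12.49 on the mature B arrays. The part of such cells in the falls at the first step was not tested.

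**Figure D3:**
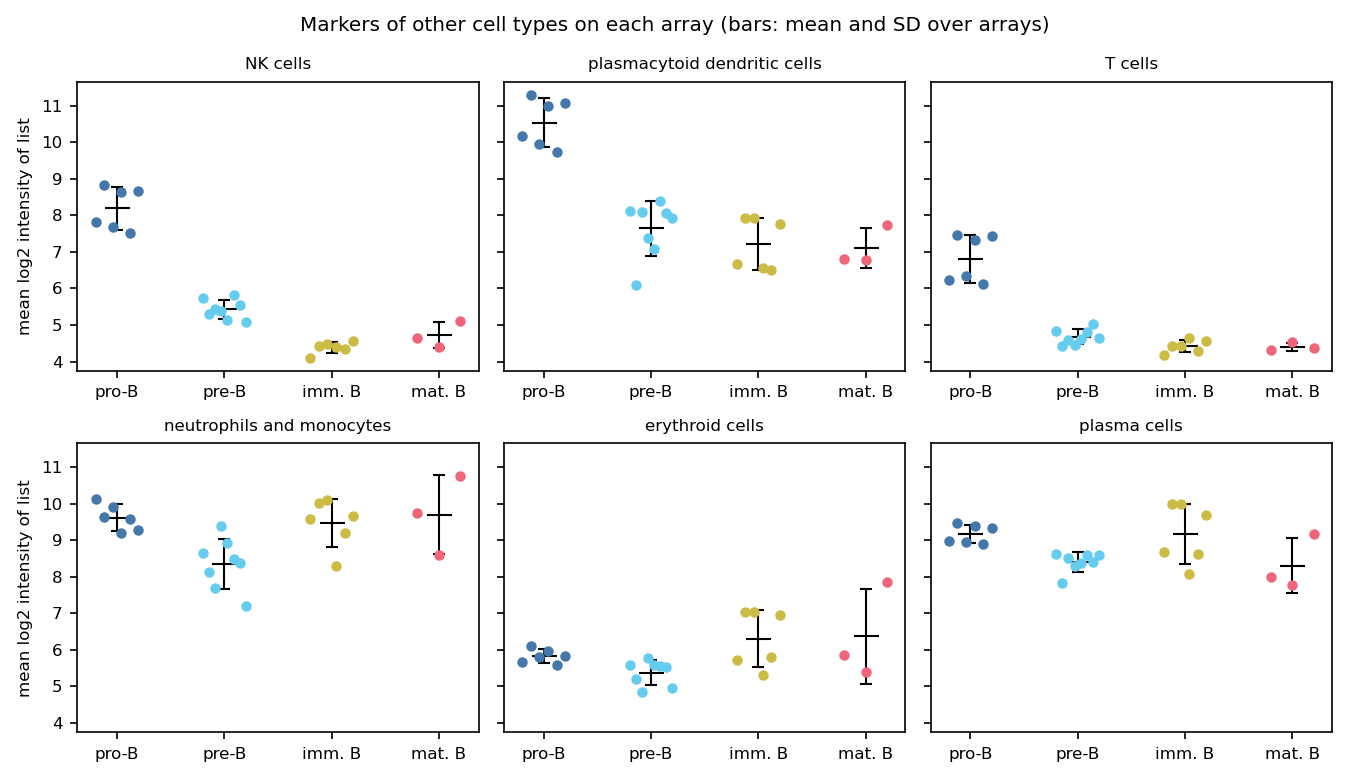
Mean log2 intensity (y axis) of 6 lists of markers of other cell types on each array (points) by stage (x axis), with the mean and SD over arrays. NK, plasmacytoid dendritic and T-cell markers are highest on the 6 pro-B arrays, while neutrophil and monocyte markers are high in all stages.

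Most genes of V(D)J recombination and the surrogate light chain fell from pre-B to immature B. Of 9 such genes measured, 7 fell from pro-B to mature B cells and none rose (median -2.66, against 0.13 over all genes). At the first step 4 rose and 2 fell (1 without mature-B3), and at the second 7 fell and none rose. Dntt, the terminal transferase that adds bases at heavy chain joints, fell by 5.12, from 11.57 to 11.90 on the pro-B arrays to 5.08, 7.74 and 6.98. It fell at the first step by 1.97 and at the second by 3.42. Rag1 and Rag2, the recombinase, rose by 1.71 and 1.13 in pre-B cells and then fell by 3.40 and 3.94. On the mature B arrays Rag1 read 6.42, 8.20 and 7.15 against 9.72 to 10.21 in pro-B cells, and Rag2 4.18, 5.43 and 5.28 against 7.85 to 8.65. Vpreb3, a chaperone of the receptor chains, was at 11.40 and 11.21 in pro-B and mature B cells with 12.41 and 12.48 between them, and Xrcc5, a DNA repair subunit, was not called at any step.

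Vpreb1 and Igll1 encode the 2 parts of the surrogate light chain and lie near each other on chromosome 16. Vpreb1 was at 12.73 in pro-B cells and at 7.14, 8.40 and 8.47 on the mature B arrays, a difference of -4.73 (SE 0.57, adjusted p = 7.46e-07). Its 6 immature B arrays ran from 7.74 to 11.09, the change was gradual, and without mature-B1 it was placed at the second step. Igll1 fell by 4.74, from 10.94 to 11.69 on the pro-B arrays to 5.86, 7.16 and 6.57. Its other probe set gave a difference of 0.90, and the file does not say which transcript each probe set reads. The promoters of both are shown because they fell by 4.73 and 4.74 and both hold the letters CAGGTG, the E-box bound by factors such as E2A, on one strand or the other (in capitals). They were chosen after their values and letters were seen. The 120 bases before each start are from RefSeq on GRCm38.p6, at chr16:16869256-16869375 on the minus strand for Vpreb1 and chr16:16863986-16864105 on the minus strand for Igll1.
Vpreb1: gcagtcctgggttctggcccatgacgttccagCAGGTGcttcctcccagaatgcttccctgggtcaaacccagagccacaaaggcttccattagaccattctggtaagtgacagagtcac
Igll1: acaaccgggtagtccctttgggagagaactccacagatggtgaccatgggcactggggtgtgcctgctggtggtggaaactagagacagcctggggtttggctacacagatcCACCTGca
In the 250 bases before the start CAGGTG was found on either strand in 3 of 9 genes of this list and in 16.14% of 9887 measured genes with a promoter sequence. The EBF-type letters CCCNNGGG were in 1 of the 9 and in 15.04% of the 9887. Such a match is a description of the letters and not a binding site.

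Receptors and surface proteins of early cells fell at different steps. Of 15 measured, 10 fell over the whole path, 2 rose (1 without any 1 of the mature B arrays) and 3 were not called (median -1.81). Kit, the receptor for stem cell factor, fell by 2.72 at the first step, to a pre-B mean of 3.30 that lay under 3.79. Flt3, a receptor of early progenitors, fell by 3.85 at that step. On the mature B arrays Flt3 read 5.30, 5.01 and 7.02, with mature-B3 the highest, against 8.30 to 10.60 in pro-B cells. Il7r, the receptor for the cytokine that early B cells need, stayed at 11.69 and 11.91 in pro-B and pre-B cells and then fell by 1.18 and by 2.45. Its mature B arrays read 7.33, 9.28 and 8.23 and its pro-B arrays 11.50 to 11.79, a difference of -3.41 (SE 0.27, adjusted p = 1.22e-09). Enpep, the BP-1 antigen of late pro-B and pre-B cells, rose by 0.70 at the first step, fell by 1.59 and 2.96 at the later steps, and read 4.27, 4.19 and 4.73 in mature B cells. Bst1, the BP-3 antigen, also had its fall of 2.55 placed at the third step, while Cd24a, high on early cells, was at 13.03 and 13.06. Il2ra, the CD25 antigen of pre-B cells, rose at the first step and fell at the second and the third, with 0.13 over the whole.

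Besides Il7r and Enpep, the falls placed from immature to mature B were led by Socs2, Elovl6 and Tnfrsf19. Socs2, an inhibitor of cytokine signals, was at 10.50, 10.18, 8.90 and 6.61 along the path, and its mature B arrays read 5.36, 7.37 and 7.10. Elovl6, a fatty acid elongase, fell by 1.13 and then by 2.15, to 5.52, 6.69 and 6.46 from 9.40 to 10.18. Tnfrsf19, a TNF receptor family member, was higher in pre-B than in pro-B cells by 0.84 and then fell by 1.40 and 2.42. In Socs2, Elovl6, Tnfrsf19 and Il7r mature-B2 was the highest and mature-B1 the lowest of the 3 mature arrays. Over the 345 large falls mature-B2 was the highest mature array in 152, mature-B3 in 165 and mature-B1 in 28.

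**Figure D4:**
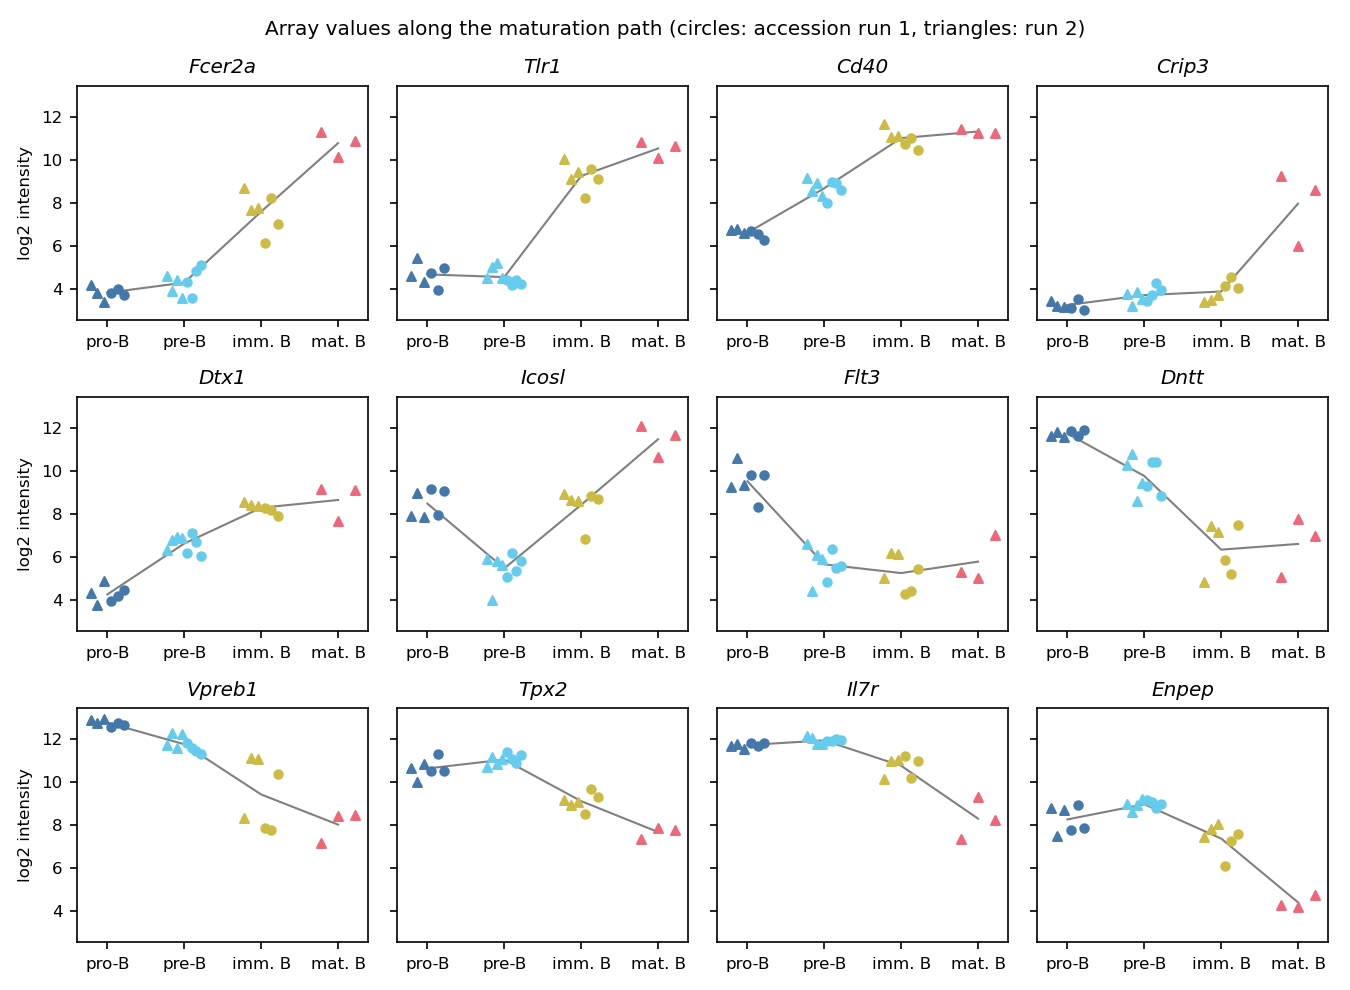
Log2 intensity (y axis) of 12 genes on each array by stage (x axis), with circles for run 1 and triangles for run 2 and a line through the stage means. Tlr1 rises between pre-B and immature B, Crip3 between immature and mature B, Flt3 falls between pro-B and pre-B and Enpep between immature and mature B, and Icosl dips in pre-B cells.

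Most transcription factors of early lymphoid cells fell and most of those of the B lineage rose. Of 15 early factors 10 fell (7 without mature-B1), 2 rose and 3 were not called (median -0.91), with 9 of the 15 lower at the first step. Hoxa9, a homeobox factor of progenitors, fell by 3.34, from 6.86 to 8.08 on the pro-B arrays to 3.69, 4.53 and 4.0, and was at 4.11 in pre-B cells. Erg, an ETS factor of stem cells, fell by 2.40 and was placed at the first step, Id2, an inhibitor of E proteins, fell by 2.49 gradually, and Lef1, a Wnt pathway factor, by 2.10, which was no large change without mature-B1 or mature-B3. Id3 and Lmo2 rose by 1.27 and 0.91, and without mature-B1 or mature-B3 1 early factor was called higher. Bcl11a, a factor that early B cells need, dipped by 1.82 in pre-B cells, regained 1.53 in immature B cells and was not called over the whole (0.24). Of 19 B-lineage factors 14 rose, Irf8 fell by 1.02 and 4 were not called (median 0.75), and 14 rose at the first step. Without mature-B2 10 rose over the whole path, and within run 2 alone 10 rose at the first step. Relb, an NF-kB subunit, rose by 2.91 to 8.70, 8.73 and 8.66, Klf2, which keeps lymphocytes at rest, by 2.48, Klf3 by 2.29 and Pou2f2, the octamer factor Oct-2, by 1.85. Klf3 dipped by 1.24 in pre-B cells first. Ebf1 and Foxo1 rose by 0.58 and 1.25, Irf4 was at 12.04 and 11.98 with 12.96 in pre-B cells, and Tcf3, which encodes E2A, was at 10.16 and 10.31 with 11.35 in pre-B cells.

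Most genes of the antigen receptor's signal chain and of its coreceptors rose. Of 15 genes of the B-cell receptor signal chain 10 rose, none fell and 5 were not called (median 0.63), with 7 higher at the first step and 5 at the second. Ighm, the heavy chain itself, was among those not called (0.21, limma adjusted p = 0.0908), and its difference was -2.82 for the mean of its probe sets and -5.59 without probe sets marked as ambiguous. Blk, a Src-type kinase of B cells, rose by 2.07, to 11.91, 11.73 and 11.98 from 8.78 to 11.10, with 62.7% of it at the first step. Within run 2 alone its difference was 1.43. In that run alone 9 of the 15 genes rose and 1 fell, and without mature-B1 7 rose. The list mean was 9.68 to 9.72 on the pro-B arrays of run 1 and 10.05 to 10.24 on those of run 2. On the mature B arrays, all of run 2, it was 10.69 to 10.80. The part of the run in these differences was not tested. Cd79b rose by 1.72 and Syk, the kinase that docks on the receptor, by 1.48, 89.4% of it at the first step. Of 15 coreceptors and surface proteins 14 rose, none fell, and Ly9 was not called (median 2.08). Of these, 6 rose at the first step and 12 at the second, and Cd55, Cr2 and Fcer2a rose at the third. Cd22, a lectin that dampens the receptor, rose by 3.06 and Cd86, a costimulator of T cells, by 2.08, both placed from pre-B to immature B.

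In the lists of receptors for survival and for traffic signals 7 genes each rose. Of 13 genes of the BAFF and TNF receptor family 7 rose, Cd27 fell by 3.29 and 5 were not called (median 0.68). Without mature-B3 2 fell, and over all genes 13.6% were called higher and 14.6% lower. Tnfrsf13c, the BAFF receptor, rose by 1.39 and by 1.5 and stood at 12.12, 12.47 and 12.05 in mature B cells against 9.11 to 9.77 in pro-B cells. Ltb, lymphotoxin beta, which shapes lymphoid follicles, was at 5.81, 5.14, 7.62 and 9.91 along the path and read 10.34, 9.44 and 9.94 on the mature arrays. It had 2 steps of 50% or more, or 1 at the second without immature-B4. Of 14 homing and adhesion genes 7 rose, Ccr9 and Cd44 fell and 5 were not called (median 0.62). Ccr7, which leads cells into lymph nodes, rose by 3.86 gradually, with steps of 1.81, 0.46 and 1.58 of which the first was called. S1pr1, the receptor that lets lymphocytes leave tissues, went from 5.19 to 5.38 on the pro-B arrays to 9.71, 8.61 and 9.54 and rose by 1.48 and 1.91 at the first 2 steps. Ccr6, a chemokine receptor of mature B cells, fell by 1.25 in pre-B cells and then rose by 2.23 and 2.94, to 11.22, 8.31 and 10.10, and without mature-B2 it was placed at the third step. Cxcr4, which holds early B cells in the marrow, was at 12.22 and 12.47, with 12.76 in pre-B cells.

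Genes of antigen presentation on MHC class II rose from the immature B stage on. Of 11 measured, 10 rose from pro-B to mature B cells and H2-Ea was not called (median 1.43). At the first step 5 fell and none rose, at the second 10 rose, and at the third 5 rose, with 3 at the third step without immature-B4, 2 without mature-B3 and 1 without mature-B1 or within run 2 alone. H2-DMb2, a chain of the peptide editor H2-M, rose by 4.66 (SE 0.35, adjusted p = 6.56e-10), from 6.03 to 7.39 on the pro-B arrays to 11.82, 10.81 and 11.38, with a dip of 0.69 in pre-B cells and a step of 3.67 to immature B. Ciita, the coactivator that class II genes depend on, read 11.31, 9.995 and 11.16 in mature B cells against 6.17 to 7.94 in pro-B cells. The second step was 1.04 and the third 2.44, so it was placed later than H2-DMb2 and H2-Eb1, for which the first step of -0.90 was not called. H2-Oa, a modulator of H2-M, fell by 1.70 and then rose by 2.60 and 1.59. The mean of the list was 10.04, 9.83 and 9.86 on pro-B2, pro-B4 and pro-B6 and 9.25, 9.14 and 8.81 on pro-B1, pro-B3 and pro-B5, the arrays with the lower NK marker means. Class II genes are also high in dendritic cells and other presenting cells, and their part in the pro-B levels was not tested. On immature-B4 the mean was 9.62, against 10.3 to 10.6 on the other immature B arrays.

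The letters CCAAT, which NF-Y reads in the Y box of class II promoters, were sought on either strand in the 250 bases before the start. They were found in 5 of 7 genes of this list with a promoter sequence (71.43%), and in 35.77% of the 9887 measured genes. Whether a match is the Y box was not tested. The promoters of H2-DMb2, H2-Oa and H2-Eb1 are shown as members that rose by 4.66, 2.49 and 2.12 and hold the letters, with each CCAAT or its reverse complement ATTGG in capitals. They were chosen after their values and letters were seen. The 120 bases before each start lie at chr17:34145129-34145248 on the plus strand for H2-DMb2, chr17:34092259-34092378 on the plus strand for H2-Oa and chr17:34305747-34305866 on the plus strand for H2-Eb1 (RefSeq, GRCm38.p6).
H2-DMb2: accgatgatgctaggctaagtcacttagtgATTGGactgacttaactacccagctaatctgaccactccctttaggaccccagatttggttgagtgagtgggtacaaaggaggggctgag
H2-Oa: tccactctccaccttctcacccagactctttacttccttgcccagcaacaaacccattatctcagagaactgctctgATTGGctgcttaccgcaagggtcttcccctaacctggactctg
H2-Eb1: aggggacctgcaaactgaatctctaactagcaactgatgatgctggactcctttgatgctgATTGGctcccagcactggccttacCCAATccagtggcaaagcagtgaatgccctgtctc
The letters lay 90 to 86 bases before the start in H2-DMb2 and 43 to 39 bases before it in H2-Oa. H2-Eb1 held 2 matches, at 59 to 55 and at 35 to 31.

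Several innate sensors and interferon genes were lower in pre-B than in pro-B cells. For comparison, 13.6% of all genes were called higher and 14.6% lower over the whole path. At the first step 15.7% of all genes were called lower, and at the second 10.9% higher. Of 13 Toll-like receptors and cofactors 4 rose, none fell and 9 were not called over the whole path (median 0.65), while 6 fell at the first step and 9 rose at the second. Without mature-B1 or without mature-B3 2 rose over the whole, and without mature-B2 7 did. Besides Tlr1, Tlr6, its lipoprotein partner, rose by 1.41, Tlr3, a sensor of double-stranded RNA, by 1.64 and Ly86, the partner of Cd180, by 0.65. The calls of Tlr3 and Ly86 were lost without mature-B1 or mature-B3, and that of Ly86 also without pro-B1, pro-B3 or pro-B5. Ly86 was not called either within run 2 alone, with the run as covariate, with the replicate block, without the intensity trend, with all 39 arrays or with the 9 arrays alone. Cd180 fell by 1.79 and rose by 2.24 at the first 2 steps and was at 0.71 over the whole, not called. Of 13 interferon response genes 3 rose, Bst2 fell and 9 were not called (median 0.34), with 8 lower at the first step and 8 higher at the second, and within run 2 alone 4 and 4. Over the whole path the interferon counts of 3 and 1 do not stand out from the shares over all genes. Without mature-B1 5 rose over the whole path, and without mature-B3 2 fell. Ifit3 rose by 2.59, to 7.74, 8.47 and 8.99 from 5.36 to 6.11, Oas2 by 2.45 and Ifit1 by 1.33, a call lost without mature-B2 or mature-B3. Markers of other cells moved with these lists. Of the 16 neutrophil and monocyte markers 12 fell at the first step and 5 rose at the second, or 11 without immature-B4, 9 without mature-B2 and 8 without mature-B3. Within run 2 alone 7 fell at the first step. On pro-B2, pro-B4 and pro-B6, the arrays with the higher NK, plasmacytoid dendritic and T-cell marker means, the Toll-like list mean was 7.65, 7.45 and 7.47 and the interferon list mean 7.75, 7.76 and 7.76. On pro-B1, pro-B3 and pro-B5 these means were 7.0, 6.92 and 6.72 and 7.04, 6.89 and 6.77. The part of such cells in these 2 lists was not tested. Of 13 immediate early genes, which respond within minutes to stimulation and to handling, 6 rose and none fell (median 0.75). Nr4a1, which reports receptor signals, rose by 2.07, Egr2 by 1.83, Egr1 by 1.79 and Junb by 1.63, a call lost without mature-B1 or mature-B2. Nr4a1 was no large change without mature-B1 or mature-B3, while Fos was at 11.39 and 12.14, with no overlap but not called.

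Genes of cell division fell from pre-B to immature B. All 21 mitosis genes measured fell from pro-B to mature B cells (median -2.23), with no overlap between the groups in any of them, and 16 of them were large falls. At the first step 5 of the 21 rose, at the second all 21 fell, and at the third 8 fell. Within run 2 alone 0 of the 21 were called by limma as higher at the first step (3 at an unadjusted p under 0.05), and without mature-B1 3 fell at the third. Tpx2, a spindle factor, was at 10.61, 11.02, 9.09 and 7.66 along the path, and its mature B arrays read 7.36, 7.85 and 7.78 against 9.97 to 11.26 in pro-B cells, a difference of -2.95 (SE 0.23, adjusted p = 9.72e-10). Kif11, the motor that separates spindle poles, fell by 2.79, to 6.75, 7.93 and 7.78, Prc1, which bundles the central spindle, by 2.46 and Bub1, a checkpoint kinase, by 2.44, which was no large change without mature-B1. The second step was -1.96 for Kif11, -1.60 for Prc1 and -2.20 for Bub1. The mean of the list was 10.03, 9.76 and 9.81 on pro-B2, pro-B4 and pro-B6 and 10.99, 10.88 and 10.61 on pro-B1, pro-B3 and pro-B5. On immature-B4 it was 8.23, against 9.02 to 9.29 on the other immature B arrays. Without that array all 21 were again called lower at the second step, and Tpx2 and Kif11 had 2 steps of 50% or more, as they did without mature-B2.

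CCAAT was found in the 250 bases before the start of 14 of 16 mitosis genes with a promoter sequence (87.5%), and TTTGAA, the letters of the cell cycle homology region (CHR), in 7 of 16 (43.75%), against 35.77% and 11.61% of the 9887 measured genes. Both motifs were read on both strands, and where they lie side by side they can share a letter. Of the 79 promoters of large falls placed from pre-B to immature B, 50 held CCAAT (63.29%) and 20 held TTTGAA (25.32%). Of the 133 of falls placed from pro-B to pre-B, 48 held CCAAT (36.09%) and 16 TTTGAA (12.03%). Of the 17 of falls placed from immature to mature B, 5 held CCAAT and 5 TTTGAA (29.41% each). For large rises CCAAT was in 8 of 13, 10 of 39 and 7 of 16 promoters in step order (61.54%, 25.64% and 43.75%). TTTGAA was in 1, 3 and 4 of these (7.69%, 7.69% and 25%). Like shares were thus also found in smaller groups placed at other steps. The promoters of Kif11, Bub1 and Prc1 are shown as mitosis genes whose CCAAT or CHR letters (capitals, either strand) lie close before the start, and they were chosen after their values and letters were seen. The 120 bases are at chr19:37376262-37376381 on the plus strand for Kif11, chr2:127831860-127831979 on the minus strand for Bub1 and chr7:80294331-80294450 on the plus strand for Prc1 (RefSeq, GRCm38.p6).
Kif11: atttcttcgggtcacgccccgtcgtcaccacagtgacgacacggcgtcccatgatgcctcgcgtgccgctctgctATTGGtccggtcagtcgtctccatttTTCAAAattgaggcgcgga
Bub1: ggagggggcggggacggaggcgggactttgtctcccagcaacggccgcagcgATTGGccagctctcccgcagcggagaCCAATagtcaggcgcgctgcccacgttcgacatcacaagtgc
Prc1: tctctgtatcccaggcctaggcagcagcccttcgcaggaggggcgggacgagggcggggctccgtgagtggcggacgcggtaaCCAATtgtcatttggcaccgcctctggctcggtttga
The CCAAT letters lay 45 to 41 bases before the start in Kif11, 68 to 64 and 42 to 38 in Bub1, and 37 to 33 in Prc1, and the CHR letters of Kif11 lay 19 to 14 bases before it.

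DNA replication genes fell at the second step too. Of 21 measured, 18 fell, none rose and 3 were not called over the whole path (median -1.28), and 20 fell from pre-B to immature B. Without mature-B1 13 fell over the whole and without mature-B3 14. Pola1, a subunit of DNA polymerase alpha, fell by 2.54, to 6.55, 7.15 and 6.22 from 8.35 to 9.81, and Cdc6, which licenses origins, by 2.53, to 4.62, 6.19 and 5.97 from 7.27 to 8.80. Gins1, part of the replicative helicase, fell by 2.0, which was no large change without mature-B1 or mature-B3, and Tk1, thymidine kinase, by 1.86. Mcm7, a helicase subunit, was at 11.82 and 11.14 and not called, and Cdt1, another licensing factor, was at 10.23 and 10.51. Outside the lists, Nt5dc2, Pimreg and Epb41l4b were among the 5 largest falls placed at that step besides Dntt and Igll1. Pimreg, a mitotic regulator, fell by 3.56, to 4.32, 4.56 and 4.79 from 7.35 to 8.95, Nt5dc2 by 3.80 and Epb41l4b, a cytoskeletal adaptor, by 3.43. Without immature-B4 Igll1 and Nt5dc2 were split, Igll1 also without mature-B2, and within run 2 alone Nt5dc2 was split and Igll1 gradual.

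**Figure D5:**
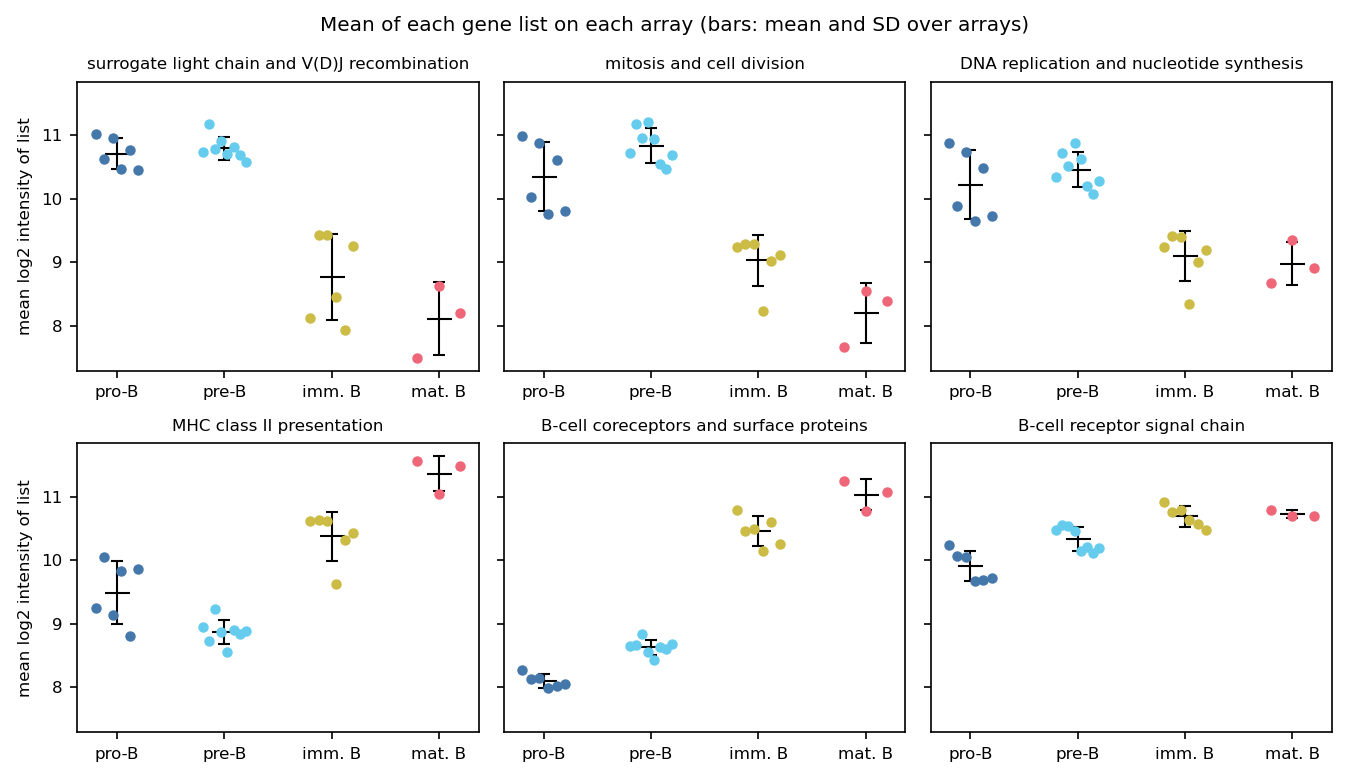
Mean log2 intensity (y axis) of 6 gene lists on each array (points) by stage (x axis), with the mean and SD over arrays. The means of the mitosis and replication lists fall between the pre-B and immature B stages, and the MHC class II and coreceptor means rise there.

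More G1 regulators fell than rose. Of 20 G1 cyclins, inhibitors and quiescence genes 9 fell, 3 rose (6 within run 2 alone) and 8 were not called (median -0.29). Ccnd1, a D-type cyclin, fell by 4.46, to 6.55, 6.37 and 7.10 from 10.37 to 11.77, and was placed at the first step. Cdk6, its kinase, fell by 3.02 gradually, and Cdkn1a and Cdkn2c, inhibitors of such kinases, by 2.58 and 1.99. The fall of Cdkn1a was placed at the second step, or at the third without immature-B4 or mature-B3. Cdkn1b, Btg1 and Txnip, which restrain division, rose by 0.58, 0.71 and 0.75. These 3 of 20 are a share near the 13.6% called higher over all genes. Cdkn2d, another inhibitor, fell by 0.52. Btg2, Tob1, Rbl2, Rb1, Foxo3, Klf4 and Ccng2 of the same list were not called. Of 12 BCL2 family genes 2 rose, 2 fell and 8 were not called (median 0.09), shares near the 13.6% higher and 14.6% lower over all genes. Without mature-B1 1 rose and 1 fell, and without mature-B3 1 rose. Mcl1, a survival factor, rose by 1.10, to 12.38, 12.73 and 12.50 from 11.19 to 11.66, and 70.7% of it came at the second step. Bcl2l1, which encodes Bcl-xL, rose by 1.60 in pre-B cells, fell by 1.21 at each of the later steps and fell by 0.83 over the whole. That call was lost without mature-B1, after quantile normalization, with all 39 arrays in 1 fit and with the replicate block. Bcl2l11, which encodes the death factor Bim, rose by 0.55, a call lost without mature-B1 or mature-B3, and Bcl2l2 fell by 1.35.

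Of 15 Myc and ribosome biogenesis genes 5 fell, none rose and 10 were not called (median -0.36), and 9 fell at the first step. Nolc1, a nucleolar protein, fell by 1.16, Rrs1 by 0.75, Fbl by 0.71 and Nop58 by 0.67, and 3 of the 15 fell without mature-B1 and 2 without mature-B3. The calls of Rrs1 and Nop58 were lost without either of these arrays, that of Nop58 also without pro-B1, pro-B3 or pro-B5, and that of Fbl without mature-B2 or mature-B3. Of 11 glycolysis genes 3 fell, 2 rose (1 without mature-B1 or mature-B3) and 6 were not called (median -0.45). Over all genes 13.6% were called higher and 14.6% lower. Ldha fell by 0.89, a call lost without mature-B3, and Pgam1 by 0.57, while Aldoa and Slc2a1, a glucose transporter, rose by 0.99 and 0.97. The call of Aldoa was lost within run 2 alone, where its difference was 0.37, and without any 1 of mature-B1, mature-B3, pro-B4, pro-B5 or pro-B6.

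Of the 473 large changes 20 turned back on the way, 10 rises and 10 falls, with a called step of at least 1 in the opposite direction. Icosl, the ligand of the T-cell costimulator ICOS, was at 8.47 in pro-B cells, fell by 3.0 in pre-B cells and rose by 2.95 and 3.04, to 12.08, 10.62 and 11.67. On immature-B4 it read 6.83 and on the other immature B arrays 8.59 to 8.91, and without that array the later steps were 3.27 and 2.72. Ms4a4c, a CD20 family protein, fell by 1.90 and rose by 3.28 and 2.15, to 11.13, 10.18 and 11.09. Col5a3, a collagen chain, rose by 3.77 at the first step and fell by 2.04 at the third, and its mature B arrays read 4.12, 7.41 and 4.69. Without mature-B2 it was not called, and its other probe set differed by 0.12. Fscn1, an actin-bundling protein, was at 7.56, 5.74, 7.57 and 5.17, with 3.94 on immature-B4 and 7.44 to 8.79 on the other immature B arrays. Its call over the whole path was lost without mature-B1, mature-B2, pro-B4 or pro-B6. The whole comparison did not show all movement along the path. Of the genes not called between pro-B and mature B cells, 3008 were called at 1 or more steps. Among these 3008, 700 had called steps in both directions.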

How the data were processed

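Sorted bone marrow cells were measured on Affymetrix arrays from 20 ng of RNA each, amplified and labelled with NuGEN Ovation kits, per the labels' protocols. The values are linear intensity values that the authors summarised with RMA, per the submitters' processing notes, in a version not given in the sources used here. Whether all arrays were summarised together is not given either. Differences between low values are compressed by such a summary, and the number of arrays limits the precision.

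The intensity of each of 22690 probe sets was turned into log2 with no offset. Of these, 64 control probe sets, 691 with several gene symbols and 1555 with none were left out, and the brightest probe set by mean over all arrays stood for each of 12393 genes (4956 had several). Symbols come from the platform annotation, and 20351 of 20380 probe sets matched RefSeq gene IDs. The 23 normal arrays were fitted with limma 3.58.1 in R 4.3.3 (lmFit, eBayes with an intensity trend, 19 residual degrees of freedom), 4 contrasts were tested, and p-values were adjusted over all genes by the method of Benjamini and Hochberg. The code was tested on simulated data. The level 3.79 is the 95th percentile of 27 bacterial control probe sets and only marks values. Accession run 1 holds the arrays before pro-B1 and run 2 the rest, and no label calls them batches.

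Genes named are the 12 largest changes in each direction, the 5 largest placed at each step and direction, up to 4 called members and 2 uncalled members of highest mean of each list, the 6 turning genes with the largest opposite step, and the stage check genes. Predicted and clone-named genes, and genes with every group mean under 3.79, were left out of these ranks. Further list members are named with values only, and those were chosen after their values were seen. The comparison and the gene lists were chosen with earlier results of these data known. Alternatives were quantile normalization, leaving out dim genes or ambiguous probe sets, the mean of all probe sets, no trend, all 39 arrays, only the 9 arrays compared, the run as covariate or run 2 alone, a replicate block, each array left out, and other limits for a large change and its placement. Promoter letters are from RefSeq on GRCm38.p6.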

Additional observations from a re-analysis of the deposited data

Results flagged for a closer look

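In 10 of 240 groups of 4 to 10 arrays tested, over 54 named genes and the list means, the highest or lowest array lay far from the others of its group. Chance alone marks about 1 in 20 groups, so the number flagged is no more than chance would give. The 3 mature B arrays were too few for this rule and were never tested by it. Of the 10, 8 concern array immature-B4, which was the lowest of the 6 immature B arrays each time. It read 8.36 for Cnr2 (the others 9.20 to 9.67), 3.94 for Fscn1 (7.44 to 8.79), 6.83 for Icosl (8.59 to 8.91) and 4.53 for Nid1 (5.96 to 6.39). Its list mean was 9.62 for MHC class II presentation (10.3 to 10.6) and 8.23 for mitosis (9.02 to 9.29). It was 9.27 for G1 cyclins, inhibitors and quiescence (9.63 to 9.71) and 8.45 for immediate early genes (9.23 to 9.40). Of the 92 named large changes, 76 were placed alike without this array and 16 otherwise, and all 92 were large. Placement moved more within run 2 alone, the only run with mature B arrays. There 69 of the 92 were placed alike, 20 otherwise, and 3 were no large change. Among those moved, Ccr7, Klf2 and Relb were placed at the first step in that run. Cd40, Cr2, Fcer2a, S1pr1, Klf3 and Ms4a4c were placed at the second.

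The other 2 concern array pre-B2. It read 4.53 for Cd209d, a lectin of the CD209 family, where the other pre-B arrays read 7.20 to 9.22. Its mean over the plasma cell markers was 7.82, against 8.29 to 8.63.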

How the results depend on the processing

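Only 3 mature B arrays enter this comparison. Leaving out each array in turn gave 2574 to 3741 genes called over the whole path and 1107 to 1870 called higher, with the lowest without mature-B1, and 241 to 801 from immature to mature B. Large rises placed at the first step ranged from 15 to 30 and at the third from 13 to 35, and large falls at the third from 14 to 35. With all 39 arrays in 1 fit 2276 genes were called over the whole path (1003 higher), 2627, 1414 and 203 at the 3 steps, and 9 large falls were placed at the third. With the run as covariate 5482 were called (2990 higher) and 1026 at the third step, and in run 2 alone 2055 at the first. Without the dimmest 40% of genes 2509 were called at the first step, 108 large falls were placed there and 7 large rises at the third. With the mean of all probe sets 13 large falls were placed at the third step. With a limit of 1 in place of 2 there were 547 large rises, placed 126, 164 and 64 in step order, and 858 large falls, placed 395, 261 and 55. When more than 50% was asked of a step, namely 2 of every 3 parts of the change, 11 large rises were placed at the first and 33 at the second. The sign turned for Ighm, with -2.82 for the mean of all probe sets and -5.59 without probe sets marked as ambiguous, for Igll1 with 0.90 without those, and for Prf1 with -0.59 for the mean of all. The cause of these shifts was not tested beyond the fewer genes or arrays that some settings hold. Of the 123 named genes called, 101 were called with the same sign under every alternative run that held the gene. A gene that an alternative left out was not tested there. Quantile normalization moved the median of all genes by -0.05. Whether the numbers pair the arrays is not settled. Within run 2, deviations of same-numbered mature B and pro-B arrays correlated at 0.06, -0.20 and -0.24. Those of differently numbered arrays correlated at -0.02, 0.17 and 0.04 on average. With 3 arrays per group such values cannot exclude a pairing. With the replicate block 3639 genes were called over the whole path (1782 higher and 1857 lower), 3057, 2550 and 581 at the steps, with 115 large rises and 358 large falls. Genes near the background level have no resolved fold.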

Other observations

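Some genes moved along the path and came back, so that mature B and pro-B cells were not called different. Among genes with a step of at least 4-fold from pro-B to pre-B, 50 were lower in pre-B cells and later higher again, and 9 were higher and later lower again. Of the neutrophil and monocyte markers 12 of 16 were lower in pre-B than in pro-B cells and 5 of 16 were higher in immature B than in pre-B cells, or 11 of 16 without immature-B4. Among named genes, Mx1, an interferon-induced GTPase, fell by 2.45 and rose by 2.22, and Hhex, a homeobox factor of early blood cells, fell by 1.30 and rose by 1.60. Bid, a death factor of the BCL2 family, fell by 1.59 and rose by 0.92, and Itgb2, an integrin chain of leukocytes, fell by 1.64 and rose by 1.32.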
